A study of Rattus norvegicus with 9 samples.

Results

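The genes of fatty acid synthesis were followed in the liver of irradiated rats. The group was defined by name as 10 genes, Acly, Acaca, Fasn, Me1, Elovl6, Scd, Mid1ip1, Thrsp, Srebf1 and Pnpla3. The rule uses no measured value, but the genes were chosen with earlier results of these data known. A probe was given to a gene when its RefSeq accession belonged to that gene in the RefSeq table of the rat assembly GRCr8. By this rule 8 of the 10 genes had a probe, with 12 probes between them, out of 9604 named genes and 25369 probes that could be tested. Srebf1, a transcription factor that drives these genes, and Pnpla3, a lipid droplet lipase, were not matched to a probe and were not analysed here.

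The livers came from 9 male Wistar rats, 3 in each of 3 groups, and the RNA of every rat was labelled with 1 dye and hybridized to its own Agilent array. The control rats were not irradiated, the TBI rats received total-body irradiation of 6.5 Gy from a cobalt source at 2 Gy/min, and the HSC + TBI rats received Hong Shan Capsule (HSC), a mixture of medicinal herbs, into the stomach on 3 consecutive days before the same irradiation. All livers were taken 24 h after exposure, and the age of the rats is not given in the sources used here. The HSC dose is given as 10 g/kg/day in one place and 30 mg/kg/day in another, and it entered no calculation. No group received HSC without irradiation, so each irradiated group was compared with the controls and both irradiated groups with each other.

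Fatty acid synthesis turns surplus carbohydrate into fat, and the liver is one of its main sites in the rat. Acly cleaves citrate to give acetyl-CoA, Acaca carboxylates it to malonyl-CoA, and Fasn joins these units into palmitate with NADPH, part of which Me1 supplies. Elovl6 lengthens palmitate to stearate and Scd sets a double bond into it, which gives oleate. In the fed state insulin and sugar raise the transcription of these genes through Srebf1 and the sugar-sensing factor Mlxipl, and thyroid hormone raises several of them, Thrsp and Me1 among these. Mid1ip1 promotes the assembly of Acaca into its active polymer, and Thrsp is a related small nuclear protein of lipogenic tissues.

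RefSeq promoter windows on GRCr8, from 250 bases before the start of a gene to 50 bases after it, were at hand for 5 of the 8 measured genes, Acly, Me1, Scd, Mid1ip1 and Thrsp. The 250 bases before the start are shown for 4 of them, chosen because the results below turn on these genes. The means of the related genes Mid1ip1 and Thrsp stood on opposite sides of the control mean after TBI. Those of Me1 and Scd were lower than the control mean in both irradiated groups. Of these differences, only that of Mid1ip1 passed the test described below. All 4 lie on the minus strand and are written 5′ to 3′ on the strand of the gene, at chrX:14735721-14735970 for Mid1ip1, chr1:161138965-161139214 for Thrsp, chr8:96540245-96540494 for Me1 and chr1:253231732-253231981 for Scd. Capitals mark a GC box (GGGCGG) or a CCAAT box (CCAAT) on either strand.
Mid1ip1: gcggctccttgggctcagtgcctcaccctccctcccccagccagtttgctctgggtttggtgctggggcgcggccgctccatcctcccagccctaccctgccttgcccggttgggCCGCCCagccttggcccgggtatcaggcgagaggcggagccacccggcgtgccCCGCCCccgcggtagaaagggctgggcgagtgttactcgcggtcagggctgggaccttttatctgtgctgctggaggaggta
Thrsp: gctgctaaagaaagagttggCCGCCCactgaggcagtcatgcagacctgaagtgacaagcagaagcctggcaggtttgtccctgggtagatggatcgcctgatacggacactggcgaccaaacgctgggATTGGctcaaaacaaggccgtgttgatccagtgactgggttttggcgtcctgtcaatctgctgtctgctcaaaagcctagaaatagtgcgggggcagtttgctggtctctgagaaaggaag
Me1: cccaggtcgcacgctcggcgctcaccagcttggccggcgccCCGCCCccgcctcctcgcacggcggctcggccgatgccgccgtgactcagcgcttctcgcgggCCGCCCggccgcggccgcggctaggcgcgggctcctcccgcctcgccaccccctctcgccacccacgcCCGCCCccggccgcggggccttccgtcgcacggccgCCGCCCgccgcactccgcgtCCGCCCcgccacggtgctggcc
Scd: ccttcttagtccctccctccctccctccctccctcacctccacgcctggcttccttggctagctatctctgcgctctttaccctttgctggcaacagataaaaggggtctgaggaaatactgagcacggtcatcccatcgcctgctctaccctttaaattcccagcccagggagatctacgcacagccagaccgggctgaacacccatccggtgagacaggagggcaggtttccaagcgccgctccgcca
These letters gave 2 GC boxes for Mid1ip1, 5 for Me1 and 1 for Thrsp, which alone of the 4 also held a CCAAT box. The Scd window held neither. The window of Acly held 3 GC boxes and 1 CCAAT box. A GC box was thus present in 4 of the 5 windows, against 33.1% of all 33469 windows of the same length, and a CCAAT box in 2 of the 5, against 37.5%. The bases before the start were 83.2% G or C for Me1, 69.6% for Mid1ip1, 68.0% for Acly, 58.8% for Scd and 54.0% for Thrsp. The letters of a sterol regulatory element core (TCACNCCAC, in 1.12% of all windows), an E-box (CACGTG, in 6.42%) and a liver X receptor element (AGGTCA repeated once, 4 bases apart, in 0.00598%) were found in none of the 5 windows on either strand. Sites farther from the start, or with other letters, were not searched. None of the marked matches overlapped another.

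The livers were checked against cell type markers before the genes were compared. All 8 hepatocyte markers, among them albumin (Alb), were above background on all 9 arrays, and the log2 of their summed signal stayed between 20.12 and 20.32. The brightest of them lie at the top of the signal range, where quantile normalization makes the arrays alike. Tf, for example, measured 18.16 in every HSC + TBI rat. The steady sum is therefore no check of the hepatocyte content. Fat tissue carries the same synthesis genes. Of 6 adipocyte markers with a probe, the defining Adipoq, Lep and Retn were below background on every array. The log2 summed signal of the adipocyte markers was 11.60 to 12.13 in the controls, 12.05 to 12.61 after TBI and 11.62 to 11.87 after HSC + TBI, and most of it came from Cfd. The adipocyte markers above background did not move alike: Cfd, a complement factor of fat cells, was up-regulated after TBI (1.14, adjusted p of 0.035 in limma), Cidec, a lipid droplet protein of fat cells and liver, was down-regulated, and the fatty acid carrier Fabp4 differed by -0.18 (adjusted p of 0.922 in limma). The log2 summed signal of 6 leukocyte markers was 13.20 to 13.90 in the controls and 12.54 to 12.76 after HSC + TBI. After TBI it was 13.16 in rat 1 but 15.71 and 15.72 in rats 2 and 3, in which Cd74, the invariant chain of antigen-presenting cells, alone measured 15.27 and 15.37. The other leukocyte markers varied: the B cell marker Cd79b was above background in the 3 controls and on no other array, the T cell marker Cd3e was below background on all arrays, and the pan-leukocyte marker Ptprc differed by -0.21 after TBI (adjusted p of 0.738 in limma). After HSC + TBI the same Ptprc probe differed by -1.29 from control and -1.08 from TBI without passing (adjusted p of 0.081 and 0.178 in limma). The Ptprc probe A_44_P236144 passed in both (-1.28 and -1.75, adjusted p of 0.016 and 0.015 in limma), and A_44_P414258 in neither. Itgam and Cd68, markers of myeloid cells, differed by 1.15 and 0.46 after TBI and did not pass (adjusted p of 0.207 and 0.316 in limma). The share of probes above background was 56.6% to 59.3% in the controls, 63.6% to 69.5% after TBI and 58.7% to 60.5% after HSC + TBI. No slide held arrays of more than 1 group, so slide and group cannot be told apart. In whole liver, fewer cells of a type and less RNA per cell cannot be told apart either.

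All 8 genes were above background on all 9 arrays, and all were tested. A gene is represented below by its brightest probe, in log2 signal after quantile normalization. Up- or down-regulated means an adjusted p under 0.05 in limma, with Benjamini-Hochberg adjustment over all 25369 tested probes, and a fold change of at least 1.5. After TBI, Mid1ip1 was up-regulated 1.83-fold and no other of the 8 genes passed. That is 12.5% of the genes, against 7.79% of the 9604 named genes tested (3.87% on the higher side) and 7.25% of the probes. The difference from control was below 0 in 6 of the 8 genes, with a median of -0.24 (log2) against 0.01 over all named genes. The rats of both groups did not overlap in 3 of the 8 genes, lower after TBI in Me1 and Thrsp and higher in Mid1ip1. Over all named genes 29.9% did not overlap, 15.7% of all on the lower side and 14.3% on the higher side. The unadjusted p was under 0.05 in 4 of the 8, against 26.1% of all genes.

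In HSC + TBI rats none of the 8 genes differed from control by the limma test (0 called, against 3.88% of named genes and 3.23% of probes). The unadjusted p was under 0.05 in 2 of them, Scd and Me1, against 21.9% of all genes. These 2 genes were also those whose rats did not overlap, both lower than control, while 34.5% of all genes did not overlap, 16.9% of all on that side. The difference was below 0 in 6 of the 8 genes, with a median of -0.06 against 0.02 over all genes. The TBI and HSC + TBI groups were set against the same 3 control rats, so the 2 sets of differences are not independent.

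Between HSC + TBI and TBI, none of the 8 genes passed (0 called, against 0.791% of named genes and 0.796% of probes). The unadjusted p was under 0.05 in Mid1ip1 alone, against 15% of all genes. Mid1ip1 was also the one gene whose rats did not overlap, lower after HSC + TBI, while 21.3% of all genes did not overlap, 11% of all on that side. The median difference over the 8 genes was 0.02, as over all genes. On data simulated from these arrays, 3-fold changes were called by limma in 74% of cases for TBI, 79% for HSC + TBI (each against control) and 67% for the irradiated groups against each other. For 1.8-fold changes these shares were 33%, 33% and 22%. The simulation changed 200 of 25369 probes, while 1839, 820 and 202 were called in the data, so its shares may not hold for these comparisons. The difference was under the 1.5-fold limit, and so could not be called, in 4 of the 8 genes after TBI, 7 after HSC + TBI and all 8 between the irradiated groups.

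**Figure D1:**
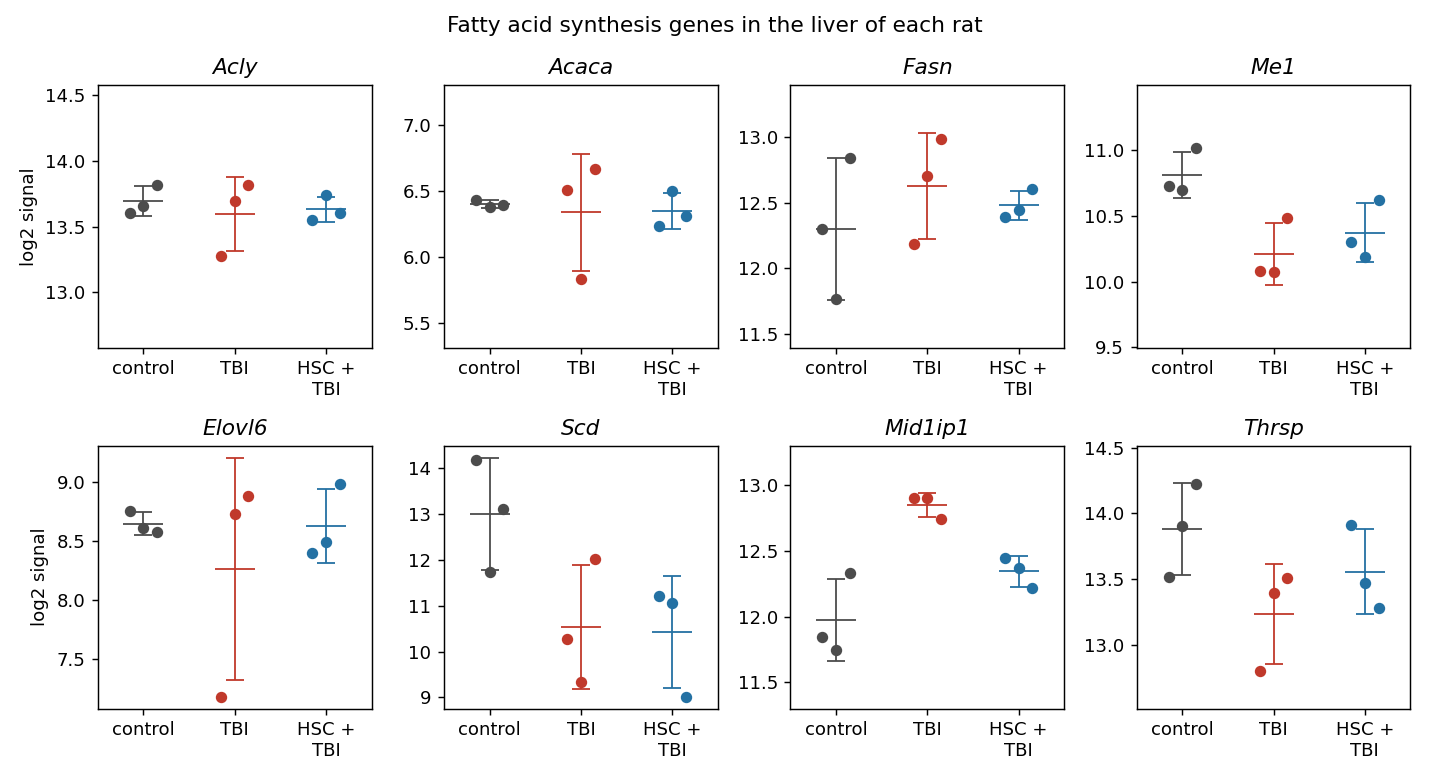
Log2 signal (vertical axis, which spans at least 2 units and differs between panels) of the 8 measured genes in control, TBI and HSC + TBI rats. Each point is 1 rat, and the bars show the group mean ± SD (n = 3); Mid1ip1 in TBI rats lies above every control and HSC + TBI rat, and Scd varies more within groups than the other genes.

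Acly, Acaca and Fasn form the trunk of the pathway, and their mean levels moved little. Acly measured 13.60, 13.66 and 13.82 in the control rats, 13.28, 13.69 and 13.82 after TBI, and 13.55, 13.74 and 13.60 after HSC + TBI. The 3 groups overlapped. The difference was -0.10 after TBI (95% confidence interval -0.45 to 0.26) and -0.06 after HSC + TBI (-0.42 to 0.29), with adjusted p of 0.730 and 0.867 in limma. The intervals given here are not adjusted for the number of probes.

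Acaca, which catalyses the committed step, measured 6.43, 6.38 and 6.40 in the controls, 6.51, 5.83 and 6.67 after TBI, and 6.24, 6.50 and 6.31 after HSC + TBI. The controls spanned 0.05 and lay inside the range of both irradiated groups. The difference was -0.06 after TBI (-0.53 to 0.41) and -0.05 after HSC + TBI (-0.52 to 0.42), with adjusted p of 0.871 and 0.921 in limma.

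Fasn measured 12.30, 11.76 and 12.84 in the controls, 12.19, 12.70 and 12.98 after TBI, and 12.39, 12.45 and 12.61 after HSC + TBI. The control rats were spread over 1.08 log2 units and enclosed all HSC + TBI rats. The difference from control was 0.32 after TBI (-0.33 to 0.97) and 0.18 after HSC + TBI (-0.47 to 0.83), with adjusted p of 0.513 and 0.781 in limma. The other Fasn probe gave 0.34 and 0.26. For these 3 genes the intervals leave room for changes of up to 1.96-fold (Fasn after TBI), so the tests do not show that their levels were the same.

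Me1, the cytosolic malic enzyme that supplies NADPH, was lower in every irradiated rat than in any control. It measured 10.73, 10.69 and 11.01 in the controls, 10.08, 10.08 and 10.49 after TBI, and 10.30, 10.19 and 10.62 after HSC + TBI. The nearest TBI rat lay 0.21 below the lowest control and the nearest HSC + TBI rat 0.07 below it. The difference was -0.60 after TBI (standard error 0.17, interval -0.99 to -0.21), with an adjusted p of 0.070 in limma. It was -0.44 after HSC + TBI (-0.83 to -0.05), with an adjusted p of 0.207 in limma. The other Me1 probe showed larger differences. It measured 10.28, 9.85 and 10.26 in the controls, 8.76, 8.86 and 9.79 after TBI, and 8.70, 8.89 and 9.40 after HSC + TBI, again without overlap with the controls. Its differences were -0.99 after TBI and -1.13 after HSC + TBI, with adjusted p of 0.078 and 0.081 in limma. Me1 thus lay below control on both probes and in both irradiated groups, and neither probe passed the test. Without TBI replicate 3 the difference of the brighter probe was -0.73 and the adjusted p 0.033 in limma, which passes. HSC + TBI and TBI rats overlapped on both probes, with differences of 0.16 and -0.14.

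Elovl6 and Scd modify the finished chain. Elovl6 measured 8.76, 8.61 and 8.58 in the controls, 7.18, 8.73 and 8.89 after TBI, and 8.40, 8.50 and 8.99 after HSC + TBI. TBI rat 1 was the lowest of all 9 rats, and the other 8 overlapped. The difference was -0.39 after TBI (-1.31 to 0.54) and -0.02 after HSC + TBI (-0.95 to 0.90), with adjusted p of 0.591 and 0.984 in limma. Without TBI replicate 1 the difference after TBI was 0.16. The other Elovl6 probe gave -0.25 and 0.23.

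Scd, the stearoyl-CoA desaturase, showed the largest differences from control of the 8 genes and the widest spread. It measured 14.17, 11.73 and 13.11 in the controls, 10.28, 9.33 and 12.01 after TBI, and 11.21, 11.05 and 9.02 after HSC + TBI. Every HSC + TBI rat lay below the lowest control, by 0.53 at the nearest, while TBI rat 3 lay above control 2. The SD within groups was 1.27, larger than in 99.4% of the named genes tested. The mean difference was -2.47 after TBI, a 5.53-fold lower level, with a standard error of 0.87 and an interval of -4.46 to -0.48. After HSC + TBI it was -2.58, 5.99-fold lower, with an interval of -4.57 to -0.59. Neither passed, with adjusted p of 0.122 and 0.152 in limma. HSC + TBI and TBI differed by -0.11, with an interval of -2.10 to 1.87, which is wide enough to hold a 3.67-fold difference. Leaving out 1 rat at a time moved the difference after TBI between -3.20 (without TBI replicate 3) and -1.86 (without TBI replicate 2), and that after HSC + TBI between -3.22 (without control replicate 2) and -1.88 (without HSC + TBI replicate 3), with no call.

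The closest relative of Scd on the arrays, the desaturase gene Scd2, has 3 probes that did not move alike and was singled out after its values were seen. Probe A_44_P194152 measured 10.94, 8.77 and 10.13 in the controls, 7.37, 6.85 and 8.49 after TBI, and 7.995, 7.77 and 6.35 after HSC + TBI. It ranked the rats as the Scd probe did in 35 of the 36 pairs of rats. Its differences from control were -2.38 and -2.58, with adjusted p of 0.062 and 0.075 in limma. Probes A_42_P813567 and A_44_P198396 ranked 23 and 24 of the 36 pairs like Scd, and gave differences of 0.53 and 0.10 after TBI and -0.11 and 0.07 after HSC + TBI. Scd and Scd2 are related desaturase genes. The probe sequences were not analysed here, and whether a probe of one also reads the transcript of the other was not tested.

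**Figure D2:**
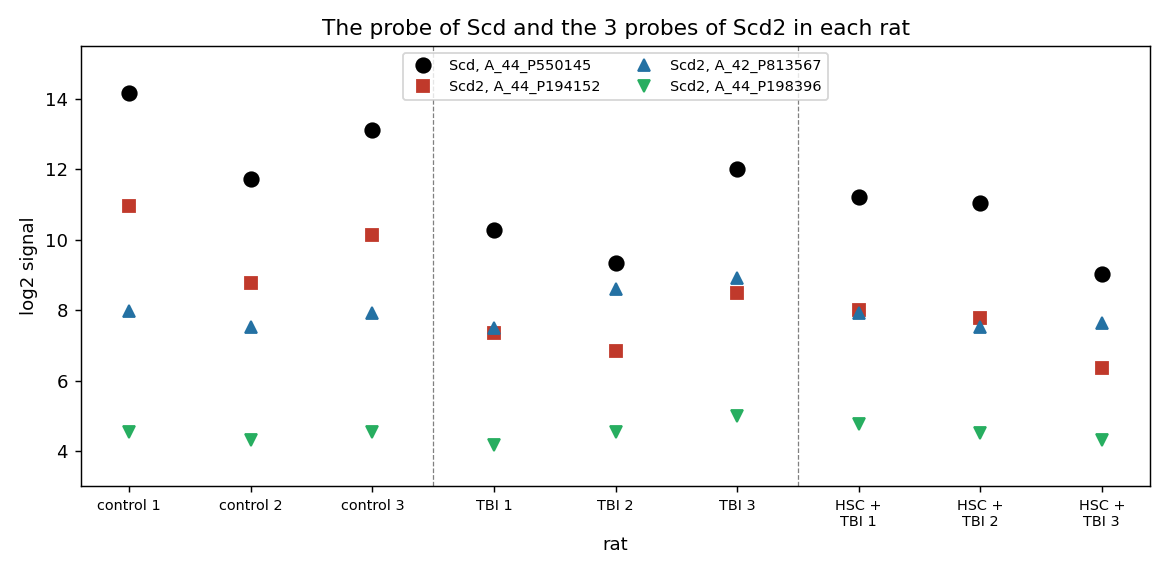
Log2 signal (vertical axis) of the Scd probe and the 3 Scd2 probes in each of the 9 rats (horizontal axis; dashed lines part the control, TBI and HSC + TBI groups). The Scd2 probe A_44_P194152 (red squares) follows the Scd probe (black circles) in 35 of 36 pairs of rats, and the other Scd2 probes (blue and green triangles) in 23 and 24.

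Mid1ip1, whose protein promotes the polymerization of Acaca, was the one gene of the 8 that passed the test. It measured 11.85, 11.74 and 12.33 in the controls, 12.90, 12.90 and 12.74 after TBI, and 12.45, 12.37 and 12.22 after HSC + TBI. Every TBI rat was above every control, by 0.41 at the nearest, and above every HSC + TBI rat, by 0.30 at the nearest. The HSC + TBI rats overlapped with the controls. Mid1ip1 was up-regulated by 0.87 ± 0.16 (log2, standard error) after TBI, 1.83-fold (1.41 to 2.38), with an adjusted p of 0.017 in limma. After HSC + TBI the difference from control was 0.37 (-0.01 to 0.75), with an adjusted p of 0.264 in limma. The direct difference between HSC + TBI and TBI was -0.50 (-0.88 to -0.13), and its adjusted p of 0.191 in limma did not pass. The other Mid1ip1 probe gave 0.97, 0.37 and -0.60 in the same order, with adjusted p of 0.010, 0.247 and 0.128 in limma. Over the 3 groups the moderated F-test in limma gave Mid1ip1 an adjusted p of 0.037, and no other of the 8 genes passed it, while 7.51% of named genes did; without 1 rat the F-test of Mid1ip1 held for control replicate 3 and TBI replicate 3 alone. The call after TBI was lost, with adjusted p of 0.053 to 0.056 in limma, without control replicate 1, without control replicate 2 or without TBI replicate 2, and also when the HSC + TBI arrays were kept out of the fit (0.052). The difference stayed between 0.76 and 1.05 as each rat was left out.

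Thrsp, the relative of Mid1ip1, stood on the other side of the control. It measured 13.52, 13.90 and 14.22 in the controls, 12.80, 13.40 and 13.51 after TBI, and 13.91, 13.47 and 13.28 after HSC + TBI. The TBI rats lay below every control, but only by 0.01 at the nearest, and the HSC + TBI rats overlapped with both groups. The difference was -0.64 after TBI (-1.23 to -0.06) and -0.32 after HSC + TBI (-0.91 to 0.26), with adjusted p of 0.163 and 0.541 in limma.

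**Figure D3:**
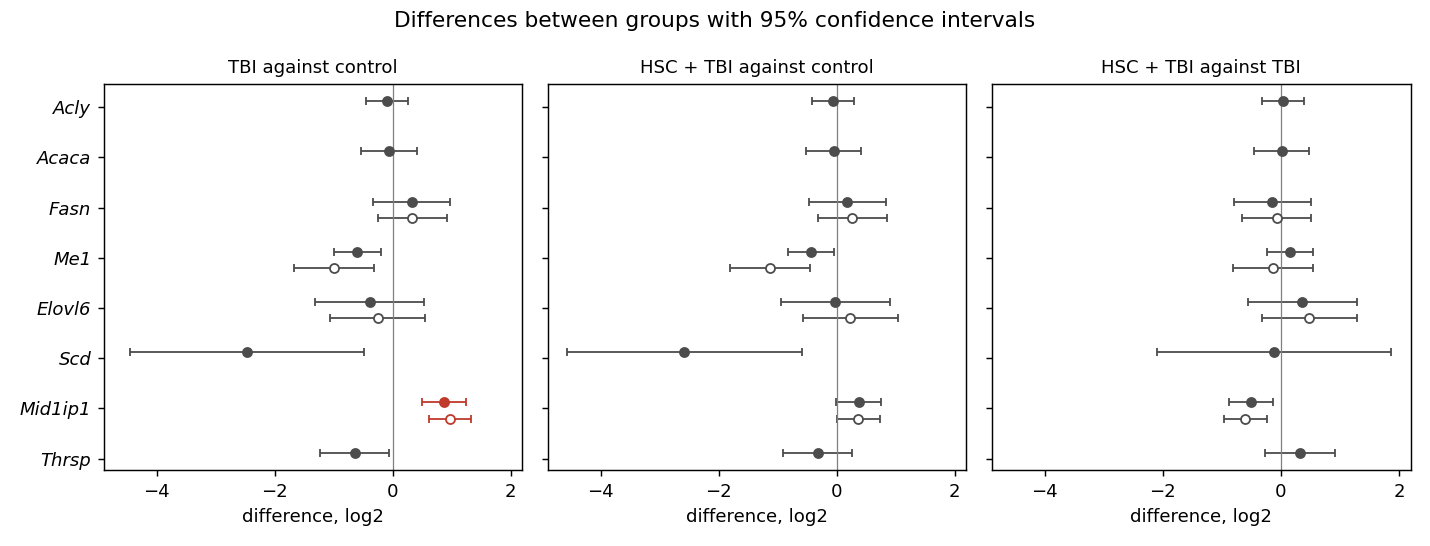
Differences between groups (horizontal axis, log2) for the 8 genes in the 3 comparisons, with 95% confidence intervals from limma that are not adjusted for the number of probes. Filled circles are the brightest probe of a gene, open circles its other probe, and red marks the probes that passed the test, which are both Mid1ip1 probes in TBI against control.

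The rats of a group differed from each other in several genes at once. TBI rat 3 was the highest of its group in 7 of the 8 genes, the exception being Mid1ip1, in which it was the lowest. TBI rat 1 was the lowest of its group in 4 genes, Acly, Fasn, Elovl6 and Thrsp. Among the controls, rat 3 was above the group mean in 6 genes and rat 2 in 1. The HSC + TBI rats were above their group mean in 3, 4 and 3 genes. TBI rat 3 also had the largest share of probes above background of all arrays (69.5%), and the part of this in its values was not tested. All 8 values of a rat come from 1 array and are not independent of each other.

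**Figure D4:**
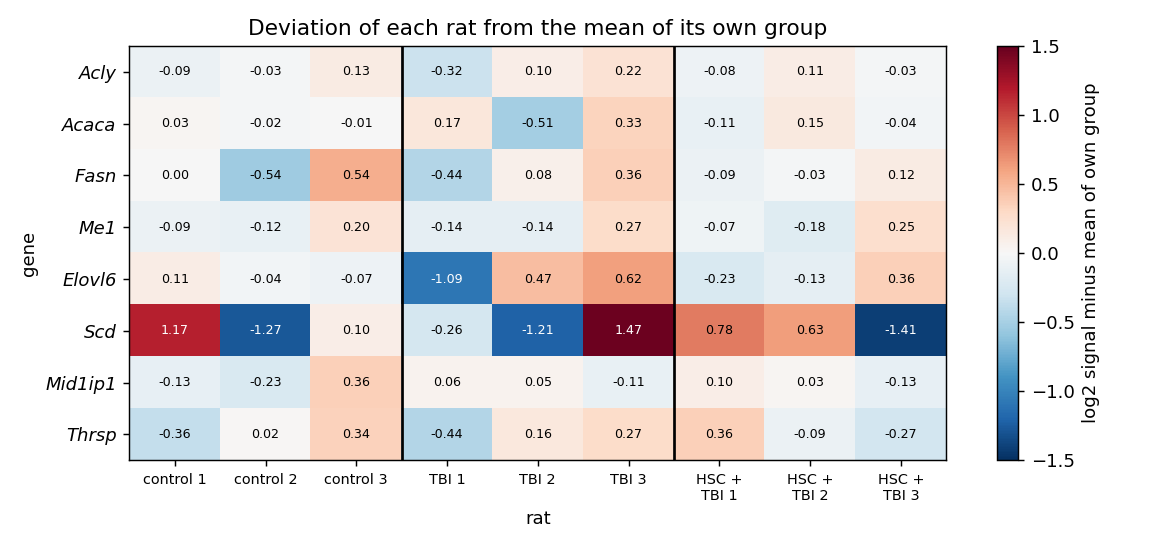
Deviation of each rat (columns, parted by black lines into control, TBI and HSC + TBI) from the mean of its own group, in log2 signal, for the 8 genes (rows). Red is above and blue below the group mean; TBI rat 3 is above it in 7 of 8 genes, and the deviations of Scd reach 1.47.

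Around these 8 genes, 55 genes of 4 lists that feed, extend, use or control the pathway were examined, of which 48 were tested. After TBI 2 of the 48 were up-regulated (Gpam and Insig1) and 3 down-regulated (Pklr, Fads2 and Dio1). After HSC + TBI 2 were up-regulated (Gpam and Insig1) and 1 down-regulated (Pklr) against control. Between HSC + TBI and TBI none of the 48 passed the limma test. The genes called by limma were 10.4% of the 48 after TBI and 6.25% after HSC + TBI, beside the 7.79% and 3.88% of all named genes given above. The unadjusted p was under 0.05 in 19 of the 48 genes after TBI, 17 after HSC + TBI and 4 between the irradiated groups, where all named genes gave 26.1%, 21.9% and 15%. Of the genes named below, Lpin2 and Irs2 were chosen after their values were seen. The median difference of the 48 was -0.14, -0.01 and 0.08 in the 3 comparisons.

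Among 9 tested genes that supply carbon and NADPH, Pklr was the one down-regulated gene in both comparisons with control. Pklr encodes the liver pyruvate kinase, the last step of glycolysis. It measured 11.53, 10.72 and 11.42 in the controls, 10.28, 9.84 and 9.89 after TBI, and 10.06, 9.78 and 9.99 after HSC + TBI, with every irradiated rat below every control. The differences were -1.22 and -1.28, with adjusted p of 0.016 and 0.022 in limma. The call after TBI was lost without control replicate 3 (0.063) or TBI replicate 2 (0.051), and that after HSC + TBI without control replicate 1 or 3 or any 1 of the HSC + TBI rats (0.051 to 0.093). Tkt, Idh1 and Taldo1, the brightest of the list, differed from control by -0.35 to -0.09, and none passed.

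Among 10 tested other enzymes of acyl chains, most of them in elongation and desaturation, Fads2 was down-regulated after TBI. Fads2 encodes the desaturase that opens the synthesis of highly unsaturated fatty acids. It measured 10.43, 10.39 and 10.42 in the controls, 8.93, 9.59 and 9.72 after TBI, and 9.86, 9.29 and 10.01 after HSC + TBI. All irradiated rats were below the controls, which lay within 0.04 of each other. The difference was -1.002 after TBI (adjusted p of 0.041 in limma) and -0.69 after HSC + TBI (adjusted p of 0.163 in limma). The call was lost when any 1 control was left out, without TBI replicate 1 or 2, or without HSC + TBI replicate 1 (adjusted p of 0.064 to 0.115 in limma). It was also lost in 5 of the 13 other alternatives of the processing. Fads1, the desaturase of a later step, showed -0.53 and -0.52 without a call. Tecr and Hacd3, which act in the elongation cycle, showed -0.44 and 0.44 after TBI, and neither passed.

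Among 12 tested genes of glycerolipid assembly and storage, Gpam was up-regulated in both comparisons with control. Gpam encodes the mitochondrial acyltransferase that starts triglyceride synthesis. It measured 6.75, 6.53 and 6.95 in the controls, 8.30, 8.38 and 8.12 after TBI, and 8.05, 7.99 and 8.08 after HSC + TBI, with every irradiated rat above every control. The differences were 1.52 and 1.30, with adjusted p of 8.5e-04 and 0.0021 in limma, and both calls held as each of the 9 rats was left out. With normexp background correction the differences were smaller, 0.91 and 0.72, and both still passed, while the methods' t-test after adjustment called neither (0.059 in both). Acsl1, Dgat2 and Dgat1, the brightest of the list, differed from control by -0.22 to 0.07 and did not pass. The phosphatidate phosphatase Lpin2 showed -0.87 after TBI on its brightest probe (adjusted p of 0.079 in limma) and -1.08 on its other probe, which passed (0.048).

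Among 17 tested genes that control lipogenesis, Insig1 was up-regulated in both comparisons with control and Dio1 down-regulated after TBI. Insig1 holds the precursors of the sterol regulatory factors in the endoplasmic reticulum and is itself one of their targets. It measured 13.07, 13.52 and 13.08 in the controls, 14.37, 15.26 and 15.82 after TBI, and 14.98, 14.92 and 14.86 after HSC + TBI. Every irradiated rat was above every control. The differences were 1.93 and 1.70, with adjusted p of 0.011 and 0.029 in limma, and its 3 other probes also passed in both comparisons. The call after TBI held as each of the 9 rats was left out, and that after HSC + TBI was lost without any 1 of the control or HSC + TBI rats (0.063 to 0.112). Dio1, the deiodinase that activates thyroid hormone in liver, measured 12.78, 12.51 and 12.92 in the controls, 11.73, 11.37 and 12.04 after TBI, and 11.79, 11.93 and 12.35 after HSC + TBI. All irradiated rats were below the controls. Its difference was -1.03 after TBI (adjusted p of 0.025 in limma; 0.051 to 0.090, without a call, when control replicate 1 or 3 or TBI replicate 1 or 2 was left out) and -0.72 after HSC + TBI (0.115). Its other probe gave -1.06 after TBI and did not pass (0.059). Nr1h3, the liver X receptor alpha, showed 0.37 and 0.02 and did not pass.

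Irs2, an adaptor of the insulin receptor, gave no single answer after TBI. Its brightest probe measured 8.29, 8.91 and 8.36 in the controls and 8.66, 10.26 and 10.86 after TBI, a difference of 1.41 that did not pass (adjusted p of 0.116 in limma). Of its 3 other probes, 2 passed, with differences of 0.93 and 1.21 (adjusted p of 0.029 and 0.048 in limma).

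**Figure D5:**
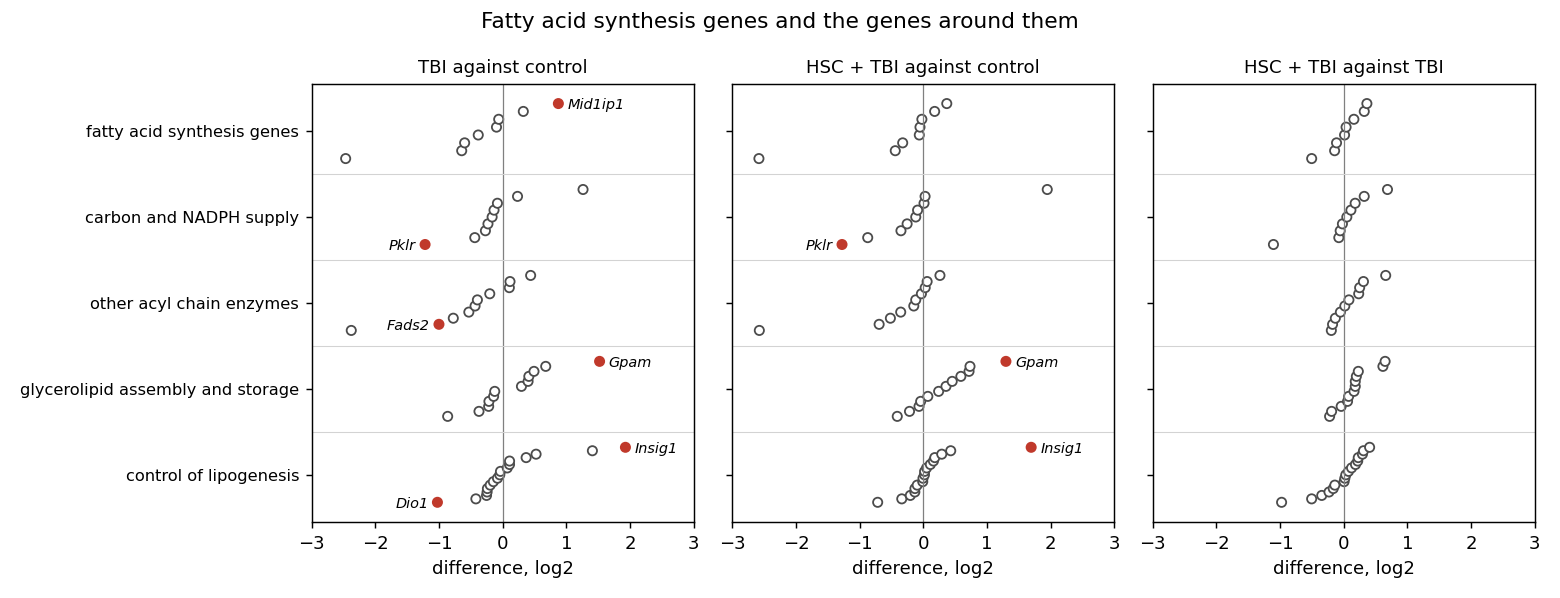
Differences between groups (horizontal axis, log2) for the 8 fatty acid synthesis genes and the 48 tested genes of the 4 lists around them, 1 circle per gene (brightest probe), ordered by size within a list. Filled red circles passed the test and are named; none passed between HSC + TBI and TBI.

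The lipid droplet gene Cidec was down-regulated after TBI (-0.86, adjusted p of 0.014 in limma) and after HSC + TBI (-0.72, 0.042). The part of cells other than hepatocytes in the values of the synthesis genes was not tested.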

How the data were processed

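Liver RNA of 9 rats, 3 per group by the labels, was measured on 1 array each. Spot intensity was extracted by the authors with Agilent Feature Extraction (version 10.7 in the submitters' processing notes, 10.7.3.1 in the file headers), which gave the processed signal used here. The authors also deposited quantile-normalized log2 values, used here as an alternative; the median absolute difference between both was 0.03 on every array. The genome build of the array annotation was not used.

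Spots flagged as outliers (84 to 115 of 43379 per array) were left out; no spot was saturated. Signals under 1 were raised to 1, log2 values were taken and quantile normalized across arrays, and the spots of a probe were averaged (41012 probes). Detection on an array required the flag for well above background on more than 0.5 of a probe's spots. Tests covered the 25369 probes (61.9%) detected on every array of 1 group or more. RefSeq accessions named 16968 probes. A gene was represented by its brightest tested probe.

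The 3 group means were fitted together by lmFit and eBayes in limma 3.58.1 (R 4.3.3), with Benjamini-Hochberg adjustment over all tested probes. The p-values set a group difference against the spread between rats, which limma moderates over all tested probes. They cannot separate group from slide, and the 3 arrays per group limit the precision. On simulated data with 200 of 25369 probes changed, 3, 13 and 8 false calls were made in the 3 comparisons. The members, the lists of genes around them and the markers were chosen with earlier results of these data known. Named genes were the members, called genes of the lists, the 3 brightest genes of each list, and markers whose level is given, with Scd2, Lpin1, Lpin2 and Irs2 added after their values were seen. In the lists, Pgd, Mcat, Plin2, Thrb and Foxo1 had no matched probe, and Elovl3 and Mbtps2 were below the filter.

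Same-numbered rats did not deviate together in all pairs (correlation of deviations from the group means -0.14 to 0.19), so the numbers were not taken to pair the rats. Between control and TBI, however, the same-numbered pairs gave 0.19, 0.12 and 0.10, and the other pairs -0.12 to 0.02. Same-numbered pairs with HSC + TBI rats gave -0.14 to 0.01. A pairing of control and TBI rats is thus not excluded, and the fit with the replicate number as a block is given below. Tried in turn were scaling by the 75th percentile, normexp background correction (offset 50), the authors' values, other filters on dim probes, outlier spots kept, the compared groups alone, the methods' t-test and one-way variance analysis before and after adjustment, no fold limit, the mean of a gene's probes, the replicate number or the slide as a block, and each rat left out. Protein sequences and promoter windows of Fasn, Acaca and Elovl6 were not analysed here. Results for some single genes of the lists are not reported here.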

Additional observations from a re-analysis of the deposited data

How the results depend on the processing

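On their brightest probes, the called differences of Mid1ip1, Pklr, Fads2, Gpam, Insig1 and Dio1 did not change sign under any alternative; the other probes of these genes and the markers were not followed across the alternatives. None of the 8 genes passed between HSC + TBI and TBI under any of them. With the arrays of the compared groups alone in the fit, 0 of the 8 genes passed after TBI, against 1, and 1174 of all 25369 probes, against 1839. The methods' t-test gave 2 after TBI (Me1 and Mid1ip1) at an unadjusted p under 0.05 and 0 after adjustment (2571 and 145 of all probes), and the analysis of variance over the 3 groups gave 2 and 0, against 1. Without the filter on dim probes the F-test gave 0. In the lists around them, the methods' t-test gave 10 genes after HSC + TBI at an unadjusted p and 1 when both irradiated groups were compared, against 3 and 0, and after adjustment 0 after TBI, against 5, and 0 after HSC + TBI; over all probes it gave 2061 and 1366 at an unadjusted p, and 100 and 2 after adjustment, for HSC + TBI against control and against TBI, compared with 820 and 202. The slide as a random block, with a consensus correlation within slides of -0.33, gave 4 of the 8 genes after TBI (Scd, Me1, Mid1ip1 and Thrsp), 1 after HSC + TBI (Scd) and 4 in the F-test, and in the lists 10, 10 and 3 (Lpin1 and Lpin2 among the last). It raised the calls over all probes too, from 1839, 820 and 202 to 4528, 2573 and 2256. No slide held arrays of more than 1 group, so this fit cannot separate slide from group, and its added calls are not counted as results. The cause of these shifts was not tested. The replicate block gave 2 of the 8 genes after TBI (Me1 and Mid1ip1), 0 in both other comparisons, 1 in the F-test (Me1 in place of Mid1ip1), and 4, 3 and 0 genes of the lists, with 1575, 780 and 97 of all probes. Leaving out 1 rat at a time gave 0 to 2 of the 8 genes after TBI (2 without TBI replicate 3), 0 in both other comparisons and 0 to 1 in the F-test. Over all probes the calls after TBI then ranged from 888 (without control replicate 3) to 2392 (without TBI replicate 3), those after HSC + TBI from 317 (without HSC + TBI replicate 1) to 1028 (without TBI replicate 1), and those of HSC + TBI against TBI from 28 (without TBI replicate 2) to 948 (without TBI replicate 1). In the lists it gave 2 to 7 genes after TBI (2 without control replicate 3 or TBI replicate 2), 1 to 4 after HSC + TBI (1 without control replicate 3 or HSC + TBI replicate 1 or 2) and 0 to 2 between HSC + TBI and TBI (Irs2 among them, without TBI replicate 1). The 75th percentile shift raised the share of higher calls among all probes after TBI from 48.9% to 57.5% and lowered it between HSC + TBI and TBI from 29.2% to 13.7%; only Fads2 lost its call under it among the genes named as called after TBI (adjusted p of 0.056 in limma). With 3 rats per group, the spread between rats limits what could be called.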
